A study of Mus musculus with 10 samples.

Results

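Canonical Wnt activity in mouse kidney organoids was read out from 10 beta-catenin target and feedback genes, Axin2, Nkd1, Notum, Znrf3, Rnf43, Lef1, Tcf7, Sp5, Lgr4 and Lgr5. These genes were chosen by name with no expression value in the rule, but with earlier results of these data known. All 10 were among the 39273 genes of the count table, and all 10 passed the filter on low counts. The series held 10 RNA-seq libraries in 5 groups of 2. Ureteric bud (UB) organoids, cultures of the branching epithelium that forms the urinary collecting system, were sampled after 5, 10 and 20 days in UB culture medium. Collecting duct (CD) organoids were UB organoids moved at day 10 into a differentiation medium (CDDM) and kept there for a week. Adult mCD cells were sorted from adult kidney, per the methods of mice about 2 months old.

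The UB and CD organoids came from T-shaped UBs of Wnt11-RFP +/- embryos (labelled embryonic day 11) on a C57BL/6 x Swiss Webster background, grown in Matrigel. Per the methods, UB organoids were passaged every 5 days, as small tips or as single cells. Cultures meant for CD differentiation were passaged as single cells at day 5. The UB medium held CHIR99021, a GSK3 inhibitor that stabilises beta-catenin, and R-spondin 1, together with FGF9, GDNF, TTNPB, LDN-193189, A83-01, a JAK inhibitor and SB202190. CDDM held FGF9, Y27632, DAPT, PD0325901, aldosterone and vasopressin and lacked both CHIR99021 and R-spondin 1. The loss of these 2 agents therefore cannot be told apart from the other changes of medium, and no library had them removed alone. The adult mCD cells were Hoxb7-Venus+ cells, sorted on a reporter driven by a promoter active along the ureteric lineage. The sample labels of the adult libraries instead repeat the embryonic age, the Wnt11-RFP +/- genotype and the word organoid, so their identity rests on the description of the series and the methods of the study. Nothing states that the 2 libraries of a group came from separate cultures or animals, and p-values measure the spread between these libraries only.

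In canonical Wnt signalling, ligands bind Frizzled and LRP receptors and stop the destruction complex, a scaffold of Axin and APC with the kinases GSK3 and CK1, from marking beta-catenin for degradation. Beta-catenin then enters the nucleus and joins TCF/LEF factors on target genes, several of which code for proteins that damp the signal again. Znrf3 and Rnf43 are ubiquitin ligases that clear Frizzled from the membrane, and R-spondins, bound to Lgr receptors, remove these ligases in turn. In the developing kidney, beta-catenin in the UB is required for branching and keeps its tip cells from differentiating early.

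Total counts were 22858971 to 24536676 per library at days 5 and 10 and 11913613 to 16759872 in the other 6 libraries. Levels are given as CPM, counts relative to library size scaled with TMM factors. Before that scaling, 3 counts in a library corresponded to 0.122 to 0.252 CPM. Counts from Y-linked genes were 1 to 24 at days 5 and 10 and 3332 to 4076 in the day 20, CD organoid and adult libraries, so the CD organoids were nearer to the day 20 than to the day 10 UB organoids in depth and in Y-linked counts. All 7 ureteric lineage markers were detected in every group, and the 6 intercalated cell markers summed to at most 5.77 CPM in UB organoids and to 1680 to 2450 CPM in CD organoids and adult mCD. The 6 principal cell markers summed to 106 to 217 CPM in UB organoids, 1240 and 1110 in CD organoids, and 8800 and 8410 in adult mCD. Among them Avpr2 had 0 counts in both CD organoid libraries. The mitochondrial share of counts was 0.969 to 1.58% at days 5 and 10, 3.1 to 3.39% at day 20 and in CD organoids, and 9.64 and 9.86% in adult mCD. Proximal tubule and endothelial markers stood apart in the adult libraries. There 8 proximal tubule markers summed to 3860 and 4610 CPM, against 6.03 to 34.1 in the organoids, and 6 endothelial markers to 779 and 748 CPM, against 2.27 to 9.86. Stromal markers summed to 107 and 120 CPM in adult mCD and 160 and 86.6 in CD organoids. Leukocyte markers summed to 55.4 and 55.0 CPM in adult mCD and 52.1 and 46.0 in CD organoids. Nephron progenitor markers summed to 10.1 and 13.7 CPM in adult mCD and 1.68 to 19.2 in the organoids. In bulk libraries fewer cells of a type and less RNA per cell cannot be told apart.

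TCF/LEF factors recognise a short core in DNA, and the promoters of the 2 genes that frame the results are printed for that reason: Sp5 had the largest difference between day 5 and day 10 among the 10 genes, and Axin2 is the standard reporter of the pathway. Both are RefSeq windows of 300 bases on GRCm38.p6, from 250 bases before to 50 bases after the start site, 5′ to 3′, at chr2:70474673-70474972 (plus strand) for Sp5 and chr11:108920099-108920398 (plus strand) for Axin2. Capitals mark matches to any of 4 cores, CTTTGAT and the versions whose final pair of letters is AA, TT or TA, searched on both strands.
Sp5: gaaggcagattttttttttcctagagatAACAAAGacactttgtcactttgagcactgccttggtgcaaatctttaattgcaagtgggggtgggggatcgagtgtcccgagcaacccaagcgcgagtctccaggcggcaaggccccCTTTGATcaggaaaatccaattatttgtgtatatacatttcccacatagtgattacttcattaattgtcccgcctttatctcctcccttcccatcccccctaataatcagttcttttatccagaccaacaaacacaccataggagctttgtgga
Axin2: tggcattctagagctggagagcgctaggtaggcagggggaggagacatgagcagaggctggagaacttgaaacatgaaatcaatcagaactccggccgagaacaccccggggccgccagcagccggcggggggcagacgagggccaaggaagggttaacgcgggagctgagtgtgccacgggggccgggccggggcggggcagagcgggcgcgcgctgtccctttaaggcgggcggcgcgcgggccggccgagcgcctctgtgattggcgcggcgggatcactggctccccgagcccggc
The Sp5 window held CTTTGAT, its first base at -104 from the start site, and CTTTGTT in reverse complement (AACAAAG), its first base at -222. The Axin2 window held none of the cores. On GRCm38 the GENCODE annotation places Sp5 at chr2:70474923-70477729 and Axin2 at chr11:108920349-108950783, both protein-coding genes, so each window covers the start of the gene and the bases before it. RefSeq windows were at hand for 7 of the 10 genes, and Lgr5, Notum and Znrf3 had no entry. Of the 12 windows of those 7 genes, 2 held a core, the other being an alternative Lef1 start (chr3:131156044-131156343, plus strand) with TACAAAG at -147. Any of the cores was found in 16.9% of 32851 promoters and CTTTGAT in 3.73%, so the share among the 10 genes is a description, and no match says only that these letters are not in the window.

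**Figure D1:**
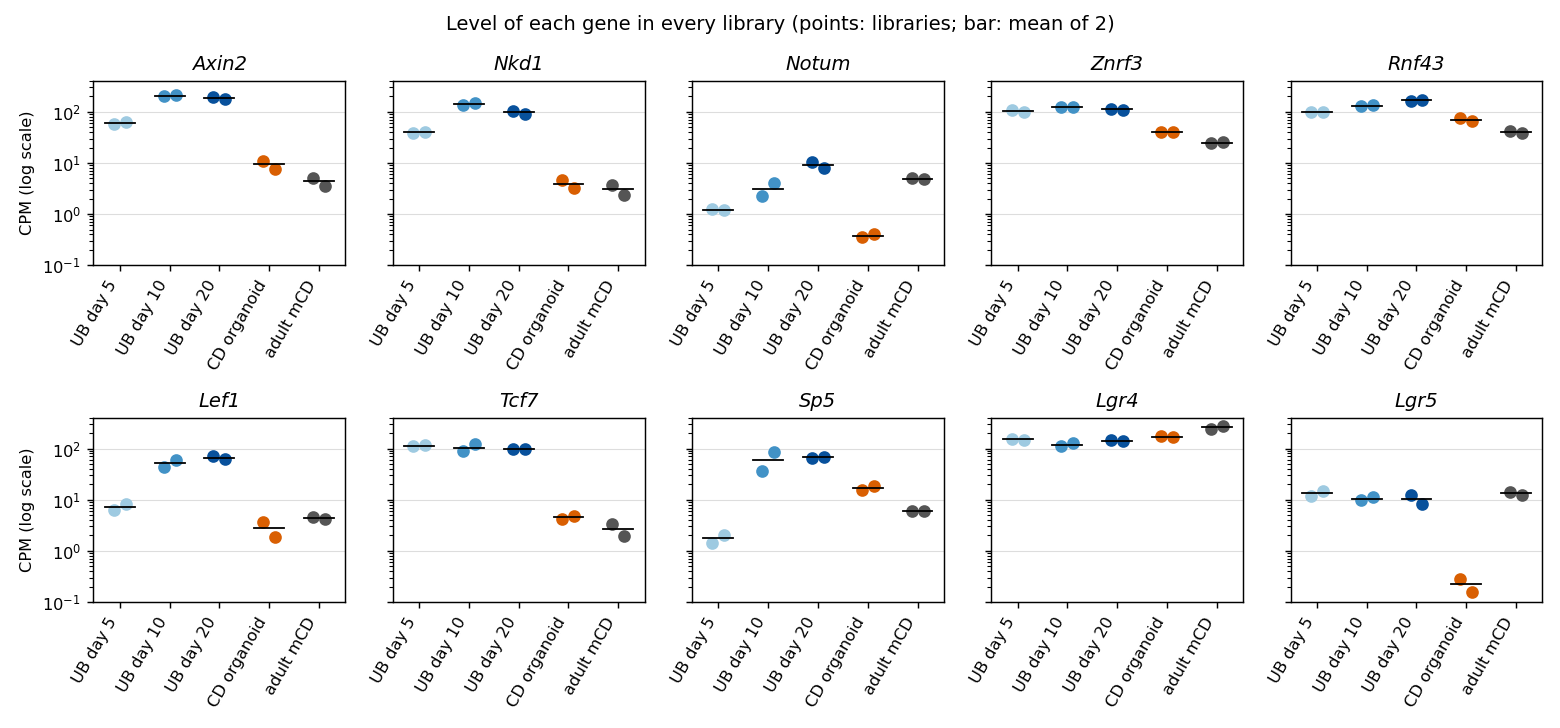
Level of the 10 genes in every library, as TMM-scaled CPM on a log axis shared by all panels, with 1 point per library and a bar at the mean of 2. Axin2, Nkd1, Lef1 and Tcf7 stood far higher at days 10 and 20 than in CD organoids and adult mCD, Lgr5 was low in CD organoids and not in adult mCD, and Lgr4 was highest in adult mCD.

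Axin2, a scaffold of the destruction complex and a direct target in most Wnt-responsive tissues, was highest at days 10 and 20 and lowest in adult mCD. Axin2 stood at 57.5 and 63.9 CPM at day 5, 200 and 213 at day 10, 193 and 182 at day 20, 11.1 and 7.78 in CD organoids, and 5.12 and 3.62 in adult mCD. The 2 libraries of a group never overlapped with those of another group. In a single comparison this held for 64.0 to 81.6% of all genes. The day 10 and day 20 levels did not differ beyond their spread (log2 difference 0.14, adjusted p = 0.373, edgeR's quasi-likelihood test). Nkd1, which binds Dishevelled and damps the signal, followed with 39.1 and 40.8 CPM at day 5, 135 and 152 at day 10, 106 and 91.9 at day 20, 4.63 and 3.29 in CD organoids, and 3.77 and 2.36 in adult mCD. Nkd1 was highest at day 10, and its CD organoid and adult values overlapped.

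Notum, a secreted esterase that strips the lipid from Wnt ligands, was scarce throughout. Notum measured 1.24 and 1.22 CPM at day 5, 2.3 and 3.97 at day 10, 10.6 and 8.0 at day 20, 0.356 and 0.401 in CD organoids, and 5.12 and 4.79 in adult mCD. Its order, with day 20 first and adult mCD second, was its own among the 10 genes, and each neighbouring pair of groups in that order differed at an adjusted p of 0.0479 or less. Its first 2 steps were lost in some settings, day 20 over adult mCD without the first day 20 (0.105) or second adult library (0.0567), and adult mCD over day 10 at an adjusted p up to 0.602. The CD organoid values rest on 5 counts in each library. An antisense gene at the same locus, Notumos, had 0 to 16 counts per library, and whether counting used strand is not given in the sources used here.

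The ubiquitin ligases Znrf3 and Rnf43 had the smallest fold range of levels among the feedback genes. Znrf3 stood at 110 and 98.1 CPM at day 5, 122 and 122 at day 10, 112 and 111 at day 20, 40.8 and 39.7 in CD organoids, and 24.3 and 25.9 in adult mCD. Its day 10 and day 20 levels, and its day 20 and day 5 levels, did not differ beyond their spread in this test (adjusted p = 0.207 and 0.327). Rnf43 measured 100 and 99.3 CPM at day 5, 131 and 133 at day 10, 163 and 172 at day 20, 74.5 and 65.3 in CD organoids, and 42.7 and 39.0 in adult mCD. Every step in the order of Rnf43, day 20, day 10, day 5, CD organoid, adult mCD, passed the test, the largest adjusted p being 0.00412.

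Among the factors, Lef1, which carries beta-catenin to DNA, stood at 6.15 and 8.28 CPM at day 5, 42.9 and 59.4 at day 10, 70.9 and 62.1 at day 20, 3.7 and 1.84 in CD organoids, and 4.52 and 4.17 in adult mCD. Tcf7, its close relative, showed no difference that passed the test across the UB organoids, where day 5 gave 114 and 115 CPM, day 10 gave 89.2 and 120, and day 20 gave 100 and 96.0. Tcf7 stood at 4.2 and 4.89 CPM in CD organoids and 3.39 and 1.97 in adult mCD. The day 10 libraries of Tcf7 spanned those of day 5 and day 20 (adjusted p = 0.453 and 0.638 for the neighbouring stages). Sp5, a zinc finger factor that binds many of the same target genes, was lowest at day 5, with 1.45 and 2.04 CPM. Sp5 then stood at 37.1 and 83.8 at day 10, 64.1 and 69.5 at day 20, 15.2 and 18.2 in CD organoids, and 6.03 and 6.05 in adult mCD. The day 10 libraries of Sp5 differed 2.26-fold from each other and spanned both day 20 libraries.

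The R-spondin receptors Lgr4 and Lgr5 departed from the rest. Lgr5, known as a stem cell marker in Wnt-dependent epithelia, stood at 11.6 and 15.1 CPM at day 5, 9.95 and 11.1 at day 10 and, in the day 20 libraries, 12.2 and 8.39. Its adult mCD values were 13.9 and 12.6 CPM. In CD organoids Lgr5 fell to 0.285 and 0.16 CPM, values that rest on 4 and 2 counts. Among the other 4 groups of Lgr5 no neighbours in their order passed the test (adjusted p 0.153 to 0.966). Lgr4, a broadly expressed receptor of the same class, stood at 156 and 147 CPM at day 5, 110 and 129 at day 10, 144 and 143 at day 20, 173 and 170 in CD organoids, and 246 and 272 in adult mCD, and was the only one of the 10 genes whose level was highest in adult mCD and lowest at day 10.

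**Figure D2:**
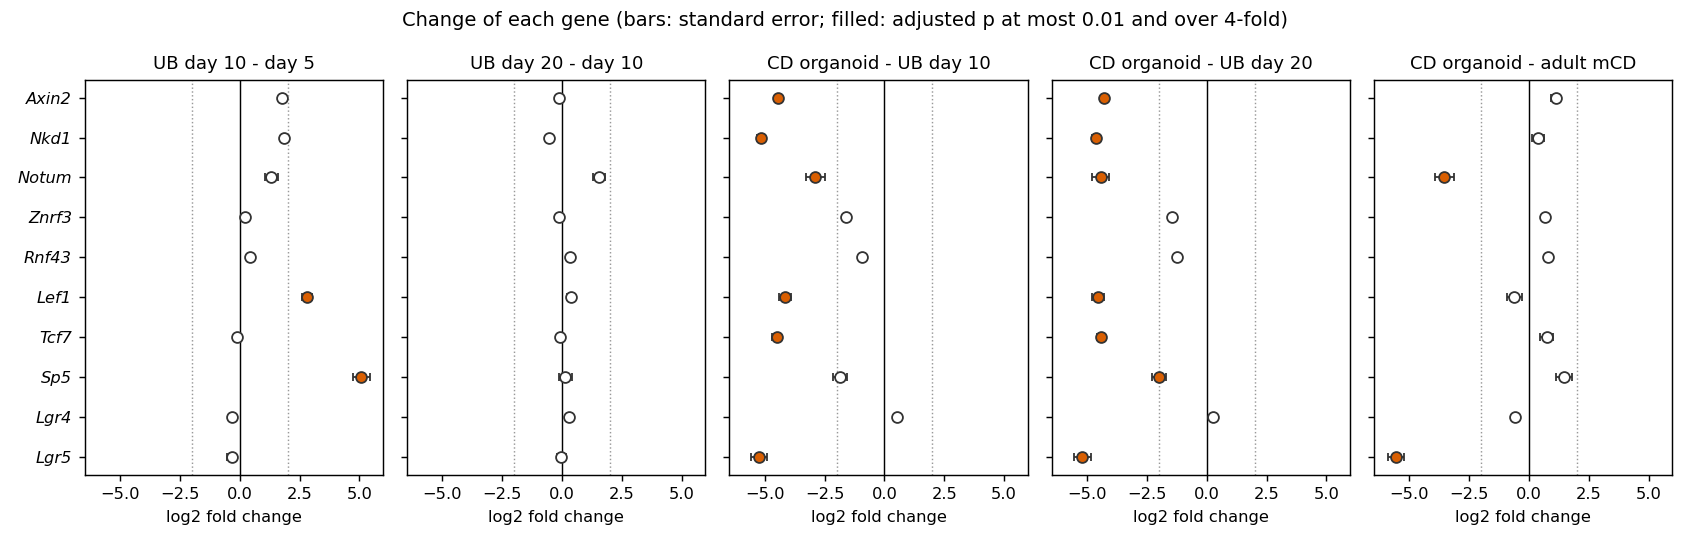
Log2 fold change of each gene in 5 comparisons, with the standard error as a bar, filled where the adjusted p was at most 0.01 and the difference over 4-fold (dotted lines at 2 and -2 on the log2 scale). From day 5 to day 10 Sp5 and Lef1 passed that rule, no gene did from day 10 to day 20, and 6 and 7 genes did in CD organoids against day 10 and day 20.

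The comparison of day 10 with day 5 asks how the read-out moved during expansion in one medium. By the schedule of the methods the day 10 cultures had been passaged, and the part of passaging was not tested. Differences that reached an adjusted p ≤ 0.05 in edgeR's quasi-likelihood test are described as rises and falls, and those over 4-fold that also reached 0.01 as called. Of the 10 genes, 2 were called, both higher, where 3.41% of the 24410 genes tested were called and 2.34% of the genes tested were called higher. Sp5 rose 33.6-fold (log2 5.07 ± 0.35 SE) with an adjusted p of 3.59e-07. The log2 value of Sp5 was 5.53 without the first day 10 library and 4.35 without the second. Lef1 rose 7.04-fold (2.81 ± 0.2, adjusted p = 4.39e-07).

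Under 4-fold, Nkd1 rose 3.59-fold and Axin2 3.4-fold (adjusted p = 2.11e-07 and 1.92e-07). Notum rose 2.49-fold (adjusted p = 0.00288), Rnf43 1.32-fold (0.00112) and Znrf3 1.17-fold (0.0293). Lgr4 fell 1.27-fold (adjusted p = 0.00664), and both it and Znrf3 were lost under other settings, at adjusted p up to 0.105 for Lgr4 (limma) and 0.207 for Znrf3 (without the second day 5 library). Neither Lgr5 (log2 -0.34, adjusted p = 0.186) nor Tcf7 (-0.13, 0.453) passed. At any fold, 7 genes rose and 1 fell, where 15.8% and 16.9% of all genes did, and the median log2 change was 0.86 for the 10 genes and 0.02 for all genes tested. Libraries of the 2 days did not overlap for 9 of the 10 genes, as for 64.0% of all genes.

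Between day 10 and day 20 in the same medium the genes moved little. None of the 10 was called by edgeR, where 3.39% of all genes were, while 4 of them passed an adjusted p of 0.05 at any fold, as 29% of all genes did. Notum rose a further 2.92-fold (log2 1.54 ± 0.252, adjusted p = 4.71e-04), and without the second day 10 library it was called at 2.02. Nkd1 fell 1.45-fold (adjusted p = 0.00302), Rnf43 rose 1.27-fold (0.00412) and Lgr4 1.2-fold (0.0305). Without the second day 20 library these 3 did not pass (edgeR, adjusted p = 0.0626, 0.0514 and 0.12). The log2 values of Axin2 (-0.14), Tcf7 (-0.09), Lgr5 (-0.03), Znrf3 (-0.13), Sp5 (0.14) and Lef1 (0.38) did not pass. Sp5 moved from 0.14 to -0.30 without the first day 10 library and to 0.87 without the second. Day 10 and day 20 also differed in depth, Y-linked counts, mitochondrial share and, by the schedule, passages, whose part was not tested.

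Over the whole span from day 5 to day 20, Sp5 (log2 5.21), Lef1 (3.19) and Notum (2.86) were called higher, where 4.68% of all genes were. Axin2 and Nkd1 stayed at 1.63 and 1.31, under 4-fold. The median was 1.03 for the 10 genes and -0.05 for all genes.

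The comparison of CD organoids with day 10 UB organoids, the stage at which differentiation was begun, gives the read-out after the change to CDDM, which lacked CHIR99021 and R-spondin 1. Y-linked counts (8 and 24 at day 10, 4076 and 3676 in CD organoids), depth, mitochondrial share and time in culture also differed, and their part was not tested. Of the 10 genes, 6 were called lower and none higher, where 10.7% of all genes were called and 5.71% of all genes were called lower. Lgr5 fell 37.8-fold (log2 -5.24 ± 0.346 SE, adjusted p = 2.53e-08), a value that rests on 6 counts in CD organoids. Nkd1 fell 35.6-fold (-5.15 ± 0.161, adjusted p = 2.55e-11). Tcf7 fell 22.8-fold (-4.51 ± 0.175, adjusted p = 1.58e-10) and Axin2 21.6-fold (-4.43 ± 0.138, adjusted p = 2.54e-11). Lef1 fell 17.8-fold (-4.16 ± 0.245, adjusted p = 8.23e-09) and Notum 7.42-fold (-2.89 ± 0.387, adjusted p = 2.62e-05).

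The decrease was smaller for the remaining genes and absent for Lgr4. Sp5 fell 3.63-fold (log2 -1.86 ± 0.28, adjusted p = 7.69e-05), and this value moved to -2.31 and -1.14 when the first or the second day 10 library was left out. Znrf3 fell 3.02-fold (-1.60 ± 0.0782, adjusted p = 1.36e-09) and Rnf43 1.89-fold (-0.92 ± 0.0793, adjusted p = 3.71e-07). Lgr4 rose 1.44-fold (0.52 ± 0.0851, adjusted p = 1.53e-04). At any fold 9 genes fell and 1 rose, where 25.2% and 22.1% of all genes did, and the median log2 change was -3.52 for the 10 genes and -0.15 for all genes. No library of one group overlapped with the other for any of the 10 genes, as for 73.3% of all genes.

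Set against day 20, the UB organoids nearest to them in depth and Y-linked counts, CD organoids had 7 of the 10 genes called lower, where 4.73% of all genes were. Lgr5 was 37-fold lower (log2 -5.21), Nkd1 24.5-fold (-4.62), Lef1 23.2-fold (-4.54), Notum 21.7-fold (-4.44), Tcf7 21.4-fold (-4.42) and Axin2 19.7-fold (-4.30), each with an adjusted p of 2.64e-07 or less. Sp5 lay at the edge of the fold rule (4-fold lower, log2 SE 0.283, adjusted p = 4.93e-05) and was under it without the second day 20 library or the first CD organoid library. Znrf3 (-1.47) and Rnf43 (-1.26) were lower under 4-fold, and Lgr4 was 1.19-fold higher (adjusted p = 0.0271) but did not pass with any 1 of the 4 libraries left out (0.103 to 0.129). The comparisons with day 10 and day 20 share the CD organoid libraries and are not independent of each other. Summed CPM of 6 stromal markers was 160 and 86.6 in CD organoids and 9.0 to 28.6 in UB organoids, that of 6 leukocyte markers was 52.1 and 46.0 against 2.55 to 14.0, and the part of these differences in the levels of the 10 genes was not tested.

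Against day 5, Sp5 was the only one of the 10 genes to pass as higher in CD organoids. Sp5 was called higher in CD organoids (log2 3.21), where 7.44% of all genes were, while Axin2 (-2.67), Tcf7 (-4.64), Lgr5 (-5.58) and Nkd1 (-3.31) were called lower, where 7.12% were. Under 4-fold, Notum (-1.57), Znrf3 (-1.37), Lef1 (-1.34) and Rnf43 (-0.51) were also lower, and Lgr4 did not pass (0.18, edgeR, adjusted p = 0.0917). The CD organoids thus ended above the earliest UB stage for Sp5 and below it for the other genes except Lgr4.

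Adult mCD is the in vivo reference for CD organoids. Between the groups 2 of the 10 genes were called, both lower in CD organoids, where 14.3% of all genes were called and 9.84% of all genes were called lower. Lgr5 was 47.5-fold lower in CD organoids (log2 -5.57 ± 0.346, adjusted p = 1.29e-08) and Notum 11.6-fold lower (-3.54 ± 0.386, adjusted p = 3.56e-06). The adult libraries also carried proximal tubule and endothelial transcripts, at the levels given above, and the part of such cells in the adult Lgr5 and Notum counts was not tested. Under 4-fold, Sp5 was 2.74-fold higher in CD organoids (adjusted p = 0.00308), Axin2 2.15-fold (2.54e-04), Rnf43 1.71-fold (3.53e-06), Tcf7 1.67-fold (0.0354) and Znrf3 1.61-fold (1.38e-05). Lgr4 was 1.51-fold lower (adjusted p = 4.96e-05). Tcf7 was lost without the second adult library (log2 0.39, 0.315), and Lgr4 when scaled by library totals alone (-0.20, 0.0714). Lef1 (log2 -0.62, adjusted p = 0.129) and Nkd1 (0.37, 0.23) did not pass.

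Relative to day 10 UB organoids, adult mCD had 6 genes called lower, where 9.1% of all genes were. Axin2 (46.6-fold), Nkd1 (45.9-fold), Tcf7 (38-fold), Lef1 (11.6-fold), Sp5 (9.95-fold) and Znrf3 (4.85-fold) were lower, each with an adjusted p of 5.76e-07 or less. Without the second day 10 library the log2 value of Sp5 moved from -3.31 to -2.58. Rnf43 was lower under 4-fold (log2 -1.69, adjusted p = 4.86e-10). Lgr4 was 2.17-fold higher (adjusted p = 5.05e-08), Notum 1.57-fold higher (0.0479), and Lgr5 did not pass (log2 0.33, 0.153). Notum was lost when scaled by library totals (0.17, adjusted p = 0.602) and without the first day 10 library (0.34, 0.243). Against day 20, 7 genes were called lower, where 6.89% of all genes were, Rnf43 now among them at 4.1-fold (-2.03 ± 0.0835) and under 4-fold without the second day 20 or the second adult library and with RLE factors or DESeq2. Scaling by library totals alone moved the median of all genes between adult mCD and day 10 from -0.21 to -0.64, and Lgr5 from 0.33 to -0.16, so no direction is given for Lgr5 there.

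**Figure D3:**
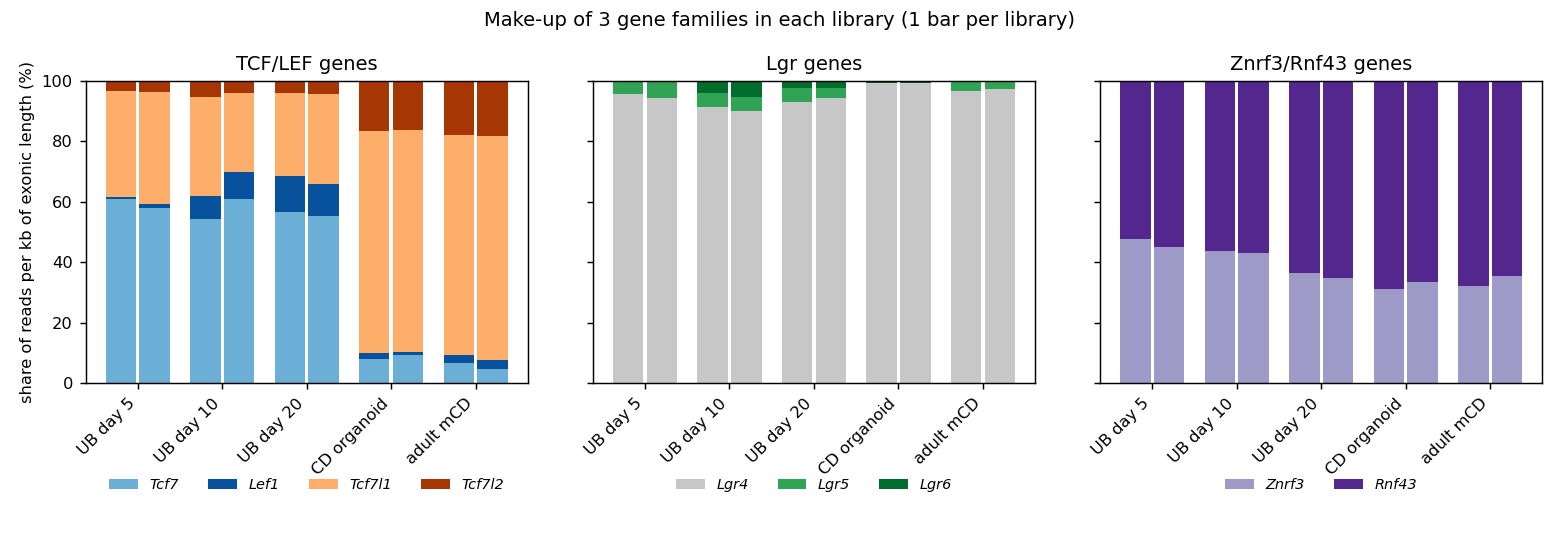
Share of each gene within the TCF/LEF, Lgr and Znrf3/Rnf43 families, as a percentage of reads per kb of exonic length, with 1 stacked bar per library. Tcf7 made up more than any other TCF/LEF gene in all 6 UB libraries and Tcf7l1 in the CD organoid and adult libraries, and Lgr4 made up at least 90.1% of the Lgr genes in every library.

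Levels of different genes were compared per length. The length listed in the deposited table is the sum over annotated transcripts, 1.0 times the exonic length for Sp5 and 5.26 times for Tcf7l2, so shares are given from counts per kb of exonic length (GENCODE M21), a scale chosen after the data were seen, with shares of the deposited RPKM beside them. At day 10 the highest of the 10 genes on this scale were Tcf7 (39.8 CPM per kb), Axin2 (37.5), Nkd1 (31.5) and Sp5 (28.8). Lgr4 (20.3), Rnf43 (20.1) and Znrf3 (15.4) came next, and Lef1 (5.82), Notum (1.3) and Lgr5 (1.03) were the lowest.

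Tcf7 and Lef1 are the TCF/LEF genes best known as targets of the pathway, and Tcf7l1 is known mainly as a repressor. The share of Tcf7 was lower, and that of Tcf7l1 higher, in CD organoids and adult mCD than at each UB stage, while the share of Lef1 was lower there than at days 10 and 20 but not than at day 5. Tcf7 made up 59.3% ± 2.04 (SD, n = 2) of the family at day 5, 57.5% ± 4.69 at day 10 and 56.0% ± 0.942 at day 20, against 8.52% ± 0.916 in CD organoids and 5.69% ± 1.45 in adult mCD. Lef1 made up 1.11% ± 0.191, 8.41% ± 0.891 and 11.3% ± 0.918 of the UB stages, 1.55% ± 0.736 of CD organoids and 2.81% ± 0.198 of adult mCD. Tcf7l1 accounted for 29.4% ± 4.51 at day 10, 73.7% ± 0.0996 in CD organoids and 73.6% ± 0.922 in adult mCD. On deposited RPKM the corresponding Tcf7l1 shares were 34.6%, 84.5% and 85.4%.

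The level of Tcf7l1 itself was not higher. It stood at 80.2 and 77.0 CPM at day 10 and 58.7 and 58.8 CPM in CD organoids, a 1.34-fold fall (log2 -0.42 ± 0.089, adjusted p = 0.00133). Tcf7l2, the fourth factor, stood at 29.8 and 25.6 CPM at day 10 and 29.3 and 28.6 in CD organoids (log2 0.07 ± 0.121, adjusted p = 0.681). The larger shares of both in CD organoids thus went with lower levels of Tcf7 and Lef1, and neither rose itself.

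Lgr4 made up 90.8% ± 0.919 of the Lgr reads at day 10 and 99.3% ± 0.0627 in CD organoids. Lgr5 made up 4.61% ± 0.206 at day 10, 0.0737% ± 0.0282 in CD organoids and 2.87% ± 0.399 in adult mCD. Lgr6, the remaining R-spondin receptor, stood at 0.299 and 0.245 CPM at day 5, 5.31 and 8.97 at day 10, 4.0 and 4.3 at day 20, 1.21 and 1.44 in CD organoids, and 0.377 and 0.0 in adult mCD. Lgr6 was called higher at day 10 than at day 5 (log2 4.47 ± 0.432, adjusted p = 5.48e-06) and lower in CD organoids than at day 10 (-2.39 ± 0.384, adjusted p = 1.39e-04). Znrf3 made up 46.5% ± 1.95 of the Znrf3 and Rnf43 reads at day 5, 43.4% ± 0.418 at day 10, 35.5% ± 0.995 at day 20, 32.4% ± 1.63 in CD organoids and 33.8% ± 2.46 in adult mCD. On deposited RPKM these shares of Znrf3 were 63.2%, 60.3%, 52.2%, 48.7% and 50.3%, so which ligase is the more abundant depends on the length used.

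**Figure D4:**
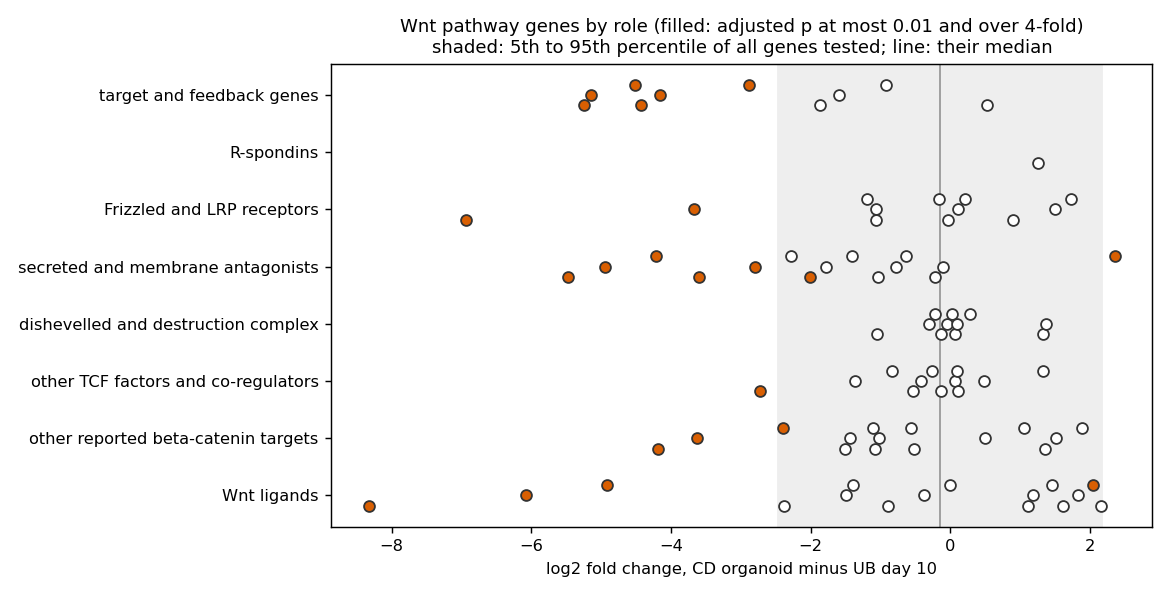
Log2 fold change between CD organoids and day 10 UB organoids for each tested gene of 8 lists of Wnt pathway genes, filled where the adjusted p was at most 0.01 and the difference over 4-fold. Shading spans the 5th to 95th percentile of all genes tested and the line marks their median of -0.15. Of the target and feedback genes 6 are filled and of the 11 Dishevelled and destruction complex genes none.

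The other genes of the pathway were described by role for CD organoids against day 10 (background 4.96% of genes higher and 5.71% lower). The single R-spondin gene with enough counts to be tested was not called. None of the 11 Dishevelled and destruction complex genes was called, 3 rose and 3 fell at any fold, and their median log2 change was 0.02. Ctnnb1, which codes for beta-catenin, did not pass (log2 0.06 ± 0.0679, adjusted p = 0.513), nor did Gsk3b (0.09, 0.296), while Axin1 fell by 0.30 on the log2 scale (adjusted p = 0.00322). The 2 largest differences in this list were those of Apc2 (1.37, adjusted p = 1.78e-04) and Dvl1 (1.32, adjusted p = 2.33e-07). These values are transcript levels and say nothing of the beta-catenin protein.

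Of 12 Frizzled and LRP receptors, 2 were called lower, where 5.71% of all genes were, and none higher, with a median of -0.10. Fzd10 stood at 2.6 and 2.73 CPM at day 5, 37.9 and 103 at day 10, 138 and 136 at day 20, 6.05 and 4.89 in CD organoids, and 0.301 and 0.0786 in adult mCD. Fzd10 thus stood highest at day 20 and fell in CD organoids with a log2 change of -3.67 ± 0.388 (adjusted p = 2.67e-06). Fzd9 stood at 26.0 and 23.8 CPM at day 10 and 0.142 and 0.16 in CD organoids, the latter at or under 3 counts in each library. The co-receptors moved less, with Lrp5 1.87-fold higher (adjusted p = 1.98e-07) and Lrp6 at a log2 change of -0.04 (0.67).

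Of 15 tested secreted and membrane antagonists, 6 were called lower and 1 higher, where 5.71% and 4.96% of all genes were, and their median was -1.78. Against day 20, 3 were called lower, where 4.73% of all genes were, and none higher, with a median of -0.96. Those lower against day 10 were Sfrp2 (log2 -5.48), Kremen2 (-4.94), Wif1 (-4.22), Sostdc1 (-3.60), Sfrp5 (-2.79) and Apcdd1 (-2.01), and Dkk3 was higher (2.36 ± 0.111, adjusted p = 9.63e-10). In CD organoids Wif1 stood at 0.285 and 0.16 CPM, Kremen2 at 0.356 and 0.16, and Sfrp2 at 0.57 and 0.481. The log2 values of these genes, also those against day 20, therefore rest on few counts. The day 10 libraries of Sfrp5 lay far apart, at 8.96 and 26.0 CPM. Kremen2 was already low by the end of UB culture, as it stood at 13.1 and 6.31 CPM at day 10 and at 0.485 and 0.463 at day 20, where its difference from CD organoids did not pass (-0.73, adjusted p = 0.453). Sfrp2 (log2 -2.02) and Sostdc1 (-2.30) were also called lower at day 20 than at day 10, and Wif1 (2.58) was called higher. In CD organoids against day 20, Sfrp2 stood at -3.46, Sostdc1 at -1.30 and Wif1 at -6.80. Of 12 other TCF factors and co-regulators, Pygo1, a co-activator in the beta-catenin complex, was called lower (-2.72 ± 0.211, adjusted p = 1.23e-07). Tle1, a Groucho-type co-repressor, stood at 87.3 and 98.8 CPM at day 5, 241 and 288 at day 10, 351 and 345 at day 20, 100 and 105 in CD organoids, and 36.3 and 34.8 in adult mCD.

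Of 15 other reported beta-catenin targets that could be tested, 3 were called lower in CD organoids, where 5.71% of all genes were, and none higher, with a median of -1.02. Besides Lgr6 and Fgf18, these included Ccnd1, the cell cycle regulator cyclin D1. Ccnd1 stood at 225 and 254 CPM at day 5, 147 and 252 at day 10, 452 and 441 at day 20, 11.8 and 10.2 in CD organoids, and 401 and 391 in adult mCD. Ccnd1 thus fell in CD organoids (log2 -4.18 ± 0.215, adjusted p = 2.23e-09) and was high in adult mCD, where Axin2 and Nkd1 were low. Of 16 Wnt ligands, 3 were called lower and 1 higher against day 10 (median -0.19), and 2 lower and 4 higher against day 20 (median 0.61), where 4.74% of all genes were called higher. Wnt11, a ligand of UB tips, went from 192 and 109 CPM at day 10 to 0.57 and 0.241 in CD organoids (-8.33 ± 0.408, adjusted p = 1.36e-09), and Wnt4 from 29.2 and 17.4 to 98.8 and 94.5 (2.05 ± 0.269, adjusted p = 2.12e-05). The level of Wnt11 already fell in UB medium, from 376 and 496 CPM at day 5 to 19.2 and 22.7 at day 20. Wnt6 (log2 -4.91) and Wnt10a (-6.08) were also called lower in CD organoids than at day 10. Wnt10a stood at 0.0 CPM in both CD organoid libraries. Both genes were already called lower at day 20 than at day 10 (-2.69 and -4.62). Against day 20 the log2 change of CD organoids was -5.48 for Wnt11 and 4.16 for Wnt4.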

How the data were processed

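The authors deposited 1 table with raw counts per gene, RPKM values and TMM values of each library, made from reads that, per their methods, were trimmed, aligned with STAR to the mouse genome (mm10) and counted in Partek Flow. The submitters' processing notes also name Trimmomatic 0.36, cutadapt 2.5 and edgeR 3.28.1. The labels name an RNeasy and TruSeq protocol and the methods another kit, and the strand setting of the counting is not given in the sources used here. The deposited RPKM uses a length summed over transcripts. The deposited TMM signal values are counts scaled to the same total in every library, and genes at 0 counts are listed at 0 in the day 5 and day 10 libraries and above 0 in the others.

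Genes with at least 10 counts over all libraries were kept (24410 of 39273) and fitted in 1 model over 5 groups with edgeR 4.0.16 in R 4.3.3 (TMM factors, quasi-likelihood test, prior count 1), with Benjamini-Hochberg adjustment over all genes tested. Calls needed an adjusted p ≤ 0.01 and a difference over 4-fold, the thresholds of the study. CPM values carry the TMM factors, and standard deviations are over 2 libraries. The named genes were the 10 target and feedback genes and, from the pathway lists, those called between CD organoids and day 10 and the 2 with the largest change in a list. Ctnnb1, Gsk3b, Axin1, Lrp5 and Lrp6 were named for their role and Tcf7l1 and Tcf7l2 as family members, all after their values were seen. The members and lists were chosen with earlier results of these data known. Of the list symbols, 16 of 17 antagonists and 17 of 18 other targets were matched. Promoters are from RefSeq on GRCm38.p6, and lengths from GENCODE on GRCm38. Alternatives were RLE factors, library totals alone, other filters, a prior count of 5, DESeq2 1.42.0, limma 3.58.1 on the TMM values, 2 groups only, a replicate block, other thresholds and leaving out each library.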

Additional observations from a re-analysis of the deposited data

How the results depend on the processing

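With other scalings, filters and tools, and with each library left out, the number of the 10 genes called in CD organoids against day 10 stayed at 6 or 7 at the thresholds of the study, against day 20 at 6 or 7, and against adult mCD at 2. Adult mCD against day 10 and against day 20 gave 6 or 7 each. Day 10 against day 5 gave 2 with every library left out, day 20 against day 10 gave 0 to 1 (1 without the second day 10 library), and day 20 against day 5 gave 3. For CD organoids the seventh gene was Sp5, at -1.99 against day 20 with RLE factors, DESeq2 and a prior count of 5. For adult mCD against day 20 the seventh gene was Rnf43, at -2.03 in the reported fit. With edgeR's adjusted p ≤ 0.05 as the only rule, 8 of the 10 genes were called for day 10 against day 5, 4 for day 20 against day 10, 6 for day 20 against day 5, 10 for CD organoids against day 10 and 8 against adult mCD. With a 2-fold minimum these numbers were 5, 1 and 5 for the UB stages and 4 for CD organoids against adult mCD. Of all genes, 832 were called for day 10 against day 5 and 827 for day 20 against day 10, and these counts moved to 518 and 548 with a prior count of 5 and to 539 and 505 with 2 groups only. Under the same looser rule, 7969, 7083 and 11017 genes were called for day 10 against day 5, day 20 against day 10 and day 20 against day 5, 11530, 10311 and 12168 for CD organoids against day 10, day 20 and adult mCD, and 15078 and 13762 for adult mCD against day 10 and day 20. With a 2-fold minimum the same comparisons gave 2862, 2791, 5440, 6293, 5376, 7191, 10470 and 8995. Directions turned only for differences near 0 that had not passed in the reported fit. For Tcf7, day 10 against day 5 was 0.01 with library totals alone and -0.37 to 0.05 with a library left out, and day 20 against day 10 was -0.26 to 0.16. For Lgr5, day 20 against day 10 was 0.01 with RLE factors, DESeq2 and the stricter filter, 0.03 with 2 groups only, and -0.30 to 0.21 with a library left out (0.08 without the second day 10 library). Lgr5 in adult mCD was -0.16 (library totals) and -0.15 (limma) against day 10 and -0.10 and -0.07 against day 20. Lgr4 for day 20 against day 5 was 0.04 with library totals and with limma. Sp5 for day 20 against day 10 was -0.30 without the first day 10 library (edgeR, adjusted p = 0.0447) and 0.87 without the second. The cause of these moves was not tested. Scaling by library totals moved the share of called genes that were higher from 31.4% to 44.4% for CD organoids against adult mCD, and from 59.6% to 44.5% and from 64.1% to 50.5% for adult mCD against day 10 and day 20, and moved the median of all genes in the first of these from 0.00 to 0.34. The deviations of equally numbered libraries correlated at -0.102 to 0.167 over pairs of groups, so no strong shared deviation was seen. With 2 libraries per group, these values cannot show whether equally numbered libraries shared an origin. With the replicate block, 6 of the 10 genes and 2583 genes in all were called in CD organoids against day 10, and no count of the 10 genes changed, though Notum in adult mCD against day 10 no longer passed (edgeR, adjusted p = 0.0537). The values of Lgr5 and Notum in CD organoids rest on 2 to 5 counts per library.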

Other observations

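Over the 10 libraries, Axin2 tracked Nkd1 most closely among the 10 genes (Pearson r = 0.993 on log2 CPM), and Znrf3 tracked Tcf7 at 0.98. Lgr4 ran opposite to Znrf3 (-0.906) and Axin2 (-0.893), and Lgr5 was nearly unrelated to Lgr4 (-0.048). The libraries share groups of 2 and fall into separate stages, so these values are descriptions with no test.

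Of 11822 other genes ranked over the same 10 libraries, the pattern nearest to Axin2 was that of Npffr1, a neuropeptide receptor (r = 0.994), followed by Gpr83 (0.991), Ccnd2 (0.991), Sorcs2 (0.991) and Trim62 (0.99). Nearest to the mean z-score of the 10 genes were Msh3 (0.992), Itga9 (0.988), Ccdc88a (0.987), Dlgap1 (0.986) and Qsox2 (0.985). Npffr1 averaged 17.8 CPM at day 5, 196 at day 10, 117 at day 20, 0.441 in CD organoids and 0.151 in adult mCD, a wider range than that of Axin2. Ccnd2, which codes for cyclin D2, averaged 724, 1430, 1150, 126 and 55.0 CPM in the same order, and so was low in adult mCD, where Ccnd1 averaged 396 CPM.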
